A study of Rattus norvegicus with 9 samples.

Results

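The oligos described here are the custom-design probes of an Agilent 1-colour rat array, taken as the sample probes whose name starts with CUST_. There were 9984 of them among 40351 sample probes, and the other 30367 carried catalogue names starting with A_. The custom names end in 1 of 2 design numbers, PI429483654 for 5526 probes and PI429484123 for 4458. The files do not state which class of RNA a custom probe was designed against, and they pair no custom probe with a gene. Each probe is a single-stranded oligo of 60 bases.

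The arrays measured brain RNA of male Wistar rats, labelled as cerebral cortices, 1 array per rat. In the CA group (n = 5) ventricular fibrillation was started under pentobarbital at 30 mg/kg with a 6 V, 50 Hz current lasting 10 s, ventilation was stopped, and chest compressions with ventilation began at 8 min; the tissue is from 2 h after the return of spontaneous circulation. The sham group (n = 4) was operated on without the arrest. Scan times in the file headers fall on 2 days: the earlier one took CA replicates 3, 4 and 5 with sham replicate 1, and the later one took CA replicates 1 and 2 with sham replicates 2, 3 and 4. A scan day is not a record of extraction or labelling, and the earlier day has 1 sham array, so every within-day difference there rests on that rat.

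An expression array reports a transcript through the strand of labelled copy RNA that pairs with a short probe, so a probe reads 1 strand of the genome and not the gene as a whole. Custom content is usually added to reach transcripts that a catalogue leaves out. After cardiac arrest the whole brain loses and regains its blood flow, and immediate early, heat shock and inflammatory genes are known to respond within hours of reperfusion. In bulk tissue, fewer cells of a type and less RNA per cell cannot be told apart.

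The first sequences shown are the 3 custom probes with the lowest p after CA, CUST_34367_PI429483654, which was detected on all arrays and passed a 2-fold CA over sham limit on each day, and CUST_39084_PI429483654, whose difference rested on 1 array. A catalogue near copy is given where one was found, since the comparison between the groups turns on these probes. They are written 5′ to 3′ in lower case, and the capitals in the pair CUST_47279_PI429483654 and A_64_P123603 mark the 4 mismatches within their 51-base overlap. In the pair CUST_39084_PI429483654 and A_64_P048408 the capitals mark the 55 bases they share.
CUST_11526_PI429484123: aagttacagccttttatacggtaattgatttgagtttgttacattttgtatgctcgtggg
CUST_47279_PI429483654: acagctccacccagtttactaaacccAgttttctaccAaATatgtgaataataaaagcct
A_64_P123603: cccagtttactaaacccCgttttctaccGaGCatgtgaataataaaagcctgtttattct
CUST_41383_PI429483654: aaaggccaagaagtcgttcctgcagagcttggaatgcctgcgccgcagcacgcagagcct
CUST_34367_PI429483654: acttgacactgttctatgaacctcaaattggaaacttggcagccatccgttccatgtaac
CUST_39084_PI429483654: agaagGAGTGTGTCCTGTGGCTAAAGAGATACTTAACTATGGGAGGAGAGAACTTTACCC
A_64_P048408: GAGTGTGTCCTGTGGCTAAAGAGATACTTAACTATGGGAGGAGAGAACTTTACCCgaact

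The next probes carried the widest differences between the scan days or between the groups on 1 day only, and none has a part in capitals. CUST_39012_PI429483654 and CUST_42901_PI429483654 were brighter on the earlier day, CUST_28860_PI429483654 and CUST_35283_PI429483654 on the later day, and the other 2 differed on sham replicate 1.
CUST_39012_PI429483654: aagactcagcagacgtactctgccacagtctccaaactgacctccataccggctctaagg
CUST_42901_PI429483654: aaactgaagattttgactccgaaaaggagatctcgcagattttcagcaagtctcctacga
CUST_28860_PI429483654: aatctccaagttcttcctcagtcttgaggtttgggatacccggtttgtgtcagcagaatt
CUST_35283_PI429483654: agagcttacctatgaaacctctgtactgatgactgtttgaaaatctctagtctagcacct
CUST_50765_PI429483654: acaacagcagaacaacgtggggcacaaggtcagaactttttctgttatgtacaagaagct
CUST_41342_PI429484123: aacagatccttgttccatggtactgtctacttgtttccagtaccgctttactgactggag

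Another set pairs custom with catalogue probes by sequence, to show how far a level belongs to the target and strand. CUST_29584_PI429483654 and A_64_P004086 share 59 bases of 1 strand, in capitals. CUST_2400_PI429484123 and A_64_P087811 share 57 bases as reverse complements, in capitals on both.
CUST_29584_PI429483654: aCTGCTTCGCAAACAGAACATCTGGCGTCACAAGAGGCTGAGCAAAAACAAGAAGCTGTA
A_64_P004086: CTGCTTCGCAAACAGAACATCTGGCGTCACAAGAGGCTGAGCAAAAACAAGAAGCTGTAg
CUST_2400_PI429484123: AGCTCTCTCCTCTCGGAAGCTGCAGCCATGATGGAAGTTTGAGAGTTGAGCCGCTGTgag
A_64_P087811: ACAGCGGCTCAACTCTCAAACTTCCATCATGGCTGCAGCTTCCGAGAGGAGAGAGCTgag

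A group of near-identical custom probes is shown by 4 members, to show how members differ in sequence. Capitals mark the mismatches to the brightest, CUST_50526_PI429483654.
CUST_50526_PI429483654: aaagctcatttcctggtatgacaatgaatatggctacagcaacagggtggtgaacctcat
CUST_43774_PI429483654: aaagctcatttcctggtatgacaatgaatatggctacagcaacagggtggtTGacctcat
CUST_30766_PI429483654: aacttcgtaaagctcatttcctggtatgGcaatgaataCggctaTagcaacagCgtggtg
CUST_40956_PI429483654: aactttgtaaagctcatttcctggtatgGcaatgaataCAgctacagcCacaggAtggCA

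Last are 4 places where a custom probe lies whole within a RefSeq promoter window, the 250 bases before to 50 after a gene's start in build GRCr8. Each is 100 bases on the gene's strand, with the probe's 60 bases in capitals: Ccdc85b at chr1:212194110-212194209 (minus strand), Wsb1 at chr10:64716874-64716973 (minus), Tob2 at chr7:115251694-115251793 (minus) and LOC134480504 at chr9:13715873-13715972 (minus). At the first 3 genes the probe itself is the reverse complement of the capitals, so it reads the strand opposite to the gene.
CUST_1012_PI429484123: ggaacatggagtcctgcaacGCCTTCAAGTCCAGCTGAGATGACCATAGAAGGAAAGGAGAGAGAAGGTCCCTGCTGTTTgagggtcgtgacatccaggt
CUST_2770_PI429484123: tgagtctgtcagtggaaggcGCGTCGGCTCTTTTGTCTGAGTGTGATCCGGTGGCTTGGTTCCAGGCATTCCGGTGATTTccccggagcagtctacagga
CUST_32910_PI429483654: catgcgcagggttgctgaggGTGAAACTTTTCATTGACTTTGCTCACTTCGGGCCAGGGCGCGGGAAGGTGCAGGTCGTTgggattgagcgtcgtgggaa
CUST_33065_PI429484123: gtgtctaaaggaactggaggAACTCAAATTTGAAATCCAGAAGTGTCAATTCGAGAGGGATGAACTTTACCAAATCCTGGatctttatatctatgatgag

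As sequences, custom probes differed from catalogue probes most in their first base and in a polyadenylation hexamer. Their median GC content was 43.3%, against 45% in the catalogue. The first base was A in 94.1% of custom and 30.6% of catalogue probes, in both designs alike (94.9% and 93.1%). The hexamer AATAAA, the usual polyadenylation signal, was searched on the probe's own strand and found in 480 custom probes (4.81%) and 2547 catalogue probes (8.39%). Its reverse complement TTTATT was in 2.96% and 2.86%. A reading frame without a stop codon ran through 81.1% of custom and 85.4% of catalogue probes. No probe of either class held 20 bases of a RefSeq rat miRNA hairpin. Of the custom probes, 589 shared a stretch of 20 bases with another custom probe, 497 of them in design PI429483654 and 92 in PI429484123.

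Most custom probes were printed at 3 spots (9900 probes) and 84 at 10, while 30311 catalogue probes had 1 spot. The arrays themselves were not alike. The mean signal of the negative control spots was 81.1 on CA replicate 3 and 31.7 to 45.8 on the other 8 arrays, and no sample spot was saturated. Levels below are log2 intensities relative to the array's own 75th percentile, so 0 marks that percentile and 1 unit is a 2-fold step. The lowest level marked well above background was -2.53 on CA replicate 3, -3.14 to -3.98 on the other earlier arrays and -5.10 to -5.51 on the later ones.

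Custom probes were detected less often than catalogue probes on every array. The scanner software marked 59.9%, 58%, 52.2%, 33.2% and 36.6% of them well above background on CA replicates 1 to 5, and 42.9%, 59.5%, 58.04% and 55.8% on sham replicates 1 to 4. The catalogue shares were 77.9%, 75.7%, 65.0%, 55.2% and 61.3% on the CA arrays and 63.7%, 77.1%, 74.9% and 75.1% on the sham arrays. The mean difference was -18.8 percentage points, negative on 9 of 9 arrays (exact two-sided sign-flip permutation test over 512 assignments, p = 0.00391, the smallest it can give; adjusted over 20 tests p = 0.0260). Within 10 bins of mean level, over the probes tested below, custom minus catalogue was 0.58 points, from -3.54 to 3.36 over arrays. Those probes were kept for being detected and matched on the level that decides detection, so a value near 0 there is close to fixed by the matching and shows nothing about the classes.

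By this mark detection separated the scan days, while no difference between the groups was detectable. Custom shares were 33.2% to 52.2% on the 4 earlier arrays and 55.8% to 59.9% on the 5 later ones, with no overlap. The difference was -17.0 points (exact permutation test over 126 splits, two-sided p = 0.00794, the smallest it can give; adjusted p = 0.0317). The CA minus sham difference within days was -0.135 points (exact permutation test over 40 reassignments, p = 0.975). By the software's weaker mark, significance over background, the days overlapped (62.9% to 83.5% earlier, 80.2% to 84.0% later) and the difference was -8.17 points (exact permutation p = 0.0635). The lowest detectable level given above was higher on the earlier arrays, and its part in the difference was not tested.

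Fully silent and day-bound probes were common in the custom class. No array marked 2089 custom probes (20.9%) well above background, against 3527 catalogue probes (11.6%), while 2647 (26.5%) and 14251 (46.9%) were marked on all 9 arrays. A further 883 custom probes (8.84%) were marked on every later array and no earlier one, and 47 (0.471%) the other way round. In the catalogue those classes held 6.85% and 0.402%. Probes marked on a single array were mostly on CA replicate 3, the array of high negative controls: 1146 custom probes there, against 4 to 71 on each of the others. The catalogue showed the same, with 1654 probes there and 23 to 173 on each of the others. The 5760 custom probes (57.7%) well above background on at least 4 arrays were tested below, with 23216 catalogue probes (76.5%), and the other 4224 custom probes were not.

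Within the custom class, detection rose with GC content. Of the 91 probes under 35% GC, 10.99% were detected on enough arrays to be tested. That share was 42.8% of 2650 probes from 35% to under 40%, 59.9% of 3555 from 40% to under 45%, 64.9% of 3272 from 45% to under 50%, and 88.0% of 416 at 50% or more. The catalogue shares in the same classes were 52.6%, 65.4%, 72.6%, 78.1% and 90.2%, so the classes were closest at the highest GC. Of the 84 probes printed at 10 spots, 35 were tested and 13 were detected on all 9 arrays.

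The 2 designs differed in level on all arrays and in detection by day. Design PI429483654 had the higher median level, by 1.41 on the log2 scale (exact sign-flip permutation p = 0.00391, adjusted p = 0.0260). Its share well above background was 10.5, 10.6 and 11 points above that of PI429484123 on the earlier CA replicates 3, 4 and 5, and 4.02 points above for sham replicate 1. On the later arrays it was lower, by -2.16, -0.42, -2.56, -1.93 and -1.05 points for CA replicates 1 and 2 and sham replicates 2, 3 and 4. The mean was 9.01 points over the earlier arrays and -1.62 over the later ones (difference 10.6, exact permutation p = 0.00794, adjusted p = 0.0317). Probes detected on every later array and no earlier one made up 12.02% of PI429484123 and 6.28% of PI429483654.

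Detected custom probes were dimmer than detected catalogue probes. Their median level was -1.89, -1.79, -1.20, -2.18 and -2.41 on CA replicates 1 to 5 and -2.15, -1.92, -1.63 and -1.98 on sham replicates 1 to 4. That lay below the catalogue median on 9 of 9 arrays, by 1.07 on average (difference -1.07, exact sign-flip permutation p = 0.00391, adjusted p = 0.0260). Over the probes detected on all 9 arrays the mean difference was 0.0532 (exact sign-flip p = 0.285), and its sign differed between the scan days. On the later arrays the custom medians, 0.209 to 0.375, lay above the catalogue medians, 0.111 to 0.138. On the earlier arrays the medians averaged 0.314 in custom and 0.387 in catalogue probes. There the custom median was the higher one on CA replicate 4 alone (0.446 against 0.422). This contrast between days was not tested. Over the tested custom probes the medians of CA and sham arrays did not separate (0.0870 within days, exact permutation p = 0.750).

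The brightest custom probe, CUST_37096_PI429483654, read 10.02, 10.25, 10.49, 11.47 and 12.04 on CA replicates 1 to 5 and 11.01, 10.04, 10.30 and 10.09 on sham replicates 1 to 4. The earlier arrays were the higher ones, with no overlap. CUST_13739_PI429484123 read 9.75 to 12.04 and CUST_17717_PI429484123 8.97 to 11.06, in the same order of days. Near copies of the first were printed as 5 catalogue probes. A_64_P051327, which overlaps it over 57 bases with 2 mismatches, had the same scan-day difference of 1.07, and A_64_P115964 (59 bases, 4 mismatches) had 1.00. A_64_P027359 (53 bases, 6 mismatches) had -0.18.

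Spots of a detected custom probe agreed closely within an array. The median SD over spots was 0.109 on the log2 scale, for tested probes of 3 spots on arrays that marked them well above background. Over all custom probes of 3 spots, the medians per array were 0.135 to 0.189. For probes of 10 spots, where marked, they were 0.160 to 0.263. The SD between rats of a group and day had a median of 0.453, against 0.359 in the catalogue. At matched level the medians were 0.511 and 0.516. A custom level is an average over several spots, while most catalogue probes have a single spot. The part of this in comparisons between the classes was not tested. Rank correlations between arrays over the 2647 custom probes detected everywhere were 0.976 to 0.991 within the later day, 0.892 to 0.969 within the earlier day and 0.743 to 0.861 between days. Without CA replicate 3 the earlier range was 0.940 to 0.969. These coefficients describe probes that share each array's RNA and scale.

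Differences between the scan days were wide in the custom class. Scan day and slide cannot be told apart, since the later arrays were all on 1 slide and the earlier ones on the other 2. Between days, 1192 custom probes were called higher and 1455 lower on the earlier day (limma with group in the model, Benjamini-Hochberg adjusted p under 0.05 over 28976 probes). That is 46.0% of the tested custom probes, where 52.9% of all tested probes were called (26.8% higher, 26.2% lower) and 50.3% of catalogue probes at matched level. The balance of higher and lower calls turned with the filter and with the scaling. Of the 2647 custom probes detected on all 9 arrays, the same fit called 934 higher and 464 lower (35.3% and 17.5%). Of the 14251 catalogue probes detected on all 9 arrays it called 39.4% higher and 18.3% lower, so both classes moved toward higher calls with this filter. After normexp the counts were 3161 higher and 883 lower. No custom probe was called either way in the deposited table (0 higher, 0 lower, and 18 at an unadjusted limma p under 0.05). All earlier arrays lay above all later arrays for 1170 custom probes (20.3%; background 26%) and below for 1245 (21.6%; background 23%). The median absolute difference was 0.804 over all tested custom probes. Taken by bins of level it was 0.817 in custom and 0.939 in level-matched catalogue probes, and 39.8% and 47.2% differed at least 2-fold. Differences of at least 8-fold were fewer among custom probes, at 5.31% of those tested against 10.5% of tested catalogue probes, either direction. These were 130 higher (background 3.92%) and 176 lower (background 5.54%). The 8-fold shares were not compared at matched level. The median signed difference was -0.108, and its sign depended on the filter and the scaling. Over the custom probes detected on all 9 arrays it was 0.257, and over such catalogue probes 0.335. With the percentile taken over detected probes the custom median was -0.427, after quantile normalization -0.256 and after normexp background correction 0.460.

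Design again divided the calls over the tested probes. PI429483654 gave 818 higher and 637 lower of 3130 tested (26.1% and 20.4%), and PI429484123 gave 374 higher and 818 lower of 2630 (14.2% and 31.1%). Over all tested probes 26.8% were called higher and 26.2% lower, so the share of PI429483654 called higher was near the background. The shares of the 2 designs called in either direction were close, 46.5% and 45.3%, against 52.9% of all tested probes. The tested set also holds probes marked on the later arrays alone. Every later array and no earlier one marked 536 probes of PI429484123 and 347 of PI429483654. The part of this in the contrast between the designs was not tested. The widest difference among probes detected on all arrays was at CUST_39012_PI429483654. It read 4.56, 5.67 and 4.92 on earlier CA replicates 3, 4 and 5 and 4.66 on sham replicate 1, against -4.28 and -3.91 on CA replicates 1 and 2 and -3.02, -2.85 and -3.61 on sham replicates 2, 3 and 4. The days did not overlap, and the fitted difference was 8.64 (SE 0.36). In the other direction CUST_28860_PI429483654 read -1.35, -0.07, 0.09 and -0.15 on the earlier arrays and 6.79, 6.54, 6.35, 6.66 and 5.71 on the later ones, a difference of -6.83 (SE 0.37). At CUST_39012_PI429483654 both later CA arrays also lay below the 3 later sham arrays, by -0.94. The later CA and sham arrays of CUST_28860_PI429483654 overlapped.

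Near copies of such probes differed between days in the same direction. CUST_39447_PI429483654 differed by -5.02 and A_64_P042380, with 56 bases in common, by -5.37. CUST_23730_PI429484123 differed by -5.58 and A_44_P114833, over 46 bases with 5 mismatches, by -5.72. CUST_28747_PI429483654 differed by -6.03 and its custom near copy CUST_28757_PI429483654 by -6.29. The scanner mark held for these near copies on 8, 7 and 6 arrays of 9, so part of each of their fitted differences is against background.

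Some probes were detected on 1 day only, so that a fold can be given only as a bound, taking the dim arrays at their lowest detectable level. CUST_17080_PI429484123 was at least 260.0-fold brighter on the earlier day, CUST_42901_PI429483654 at least 139-fold and CUST_33446_PI429483654 at least 73.5-fold. On the later day CUST_35283_PI429483654 was at least 469-fold brighter, CUST_28740_PI429483654 at least 396-fold and CUST_30600_PI429484123 at least 93.4-fold. Adjusted p from limma for scan day lay between 1.2e-07 and 7.5e-07 for these 6 probes. They were chosen for being detected on 1 day only, and their dim side is background signal. A low p was therefore fixed by the choice and is no test of the difference. CUST_35283_PI429483654 read 5.01, 5.42, 5.47, 5.78 and 5.68 on the later arrays and was not well above background on the earlier ones, at -3.88, -5.04, -5.61 and -4.23. The deposited normalized table did not hold these differences: in it the median absolute scan-day difference of custom probes was 0.109, and 53 (0.920%) differed at least 2-fold. The columns of that table for CA replicates 4 and 5 and sham replicate 1, which are 3 of the 4 earlier arrays, did not correlate best with their own scanner files, so what a scan-day difference in it means is unknown.

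No custom probe was called between CA and sham. With scan day as a block, 0 were higher and 0 lower at an adjusted p under 0.05 (limma, all 28976 tested probes; background 0.0104% higher and 0% lower), and the lowest adjusted p was 0.0566. An unadjusted p under 0.05 was reached by 193 custom probes (3.35%), of which 116 were higher after CA, where 4.9% of all tested probes and 5.11% of level-matched catalogue probes reached it. The custom share was below both. Without a call, the values below describe the probes of lowest p and are no list of changed transcripts.

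The lowest p belonged to CUST_11526_PI429484123. It read 2.23, 1.93, 5.12, 3.47 and 5.87 on CA replicates 1 to 5 and -0.91, -2.41, -2.91 and -1.67 on sham replicates 1 to 4. Every CA array was above every sham array, with CA replicates 3 and 5 highest. The fitted CA minus sham difference was 4.92 (SE 0.55, limma adjusted p = 0.0566), 5.73 within the earlier day and 4.41 within the later. Over the 21 alternatives run its adjusted p ranged from 0.0022 to 0.818 and was under 0.05 in 4.

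CUST_47279_PI429483654 read 1.54, 2.26, 2.11, 1.60 and 2.62 after CA and -0.59, 0.03, -0.59 and -0.36 in sham, a difference of 2.40 (SE 0.29, limma adjusted p = 0.0806). Its near copy in the catalogue, A_64_P123603, read 3.03, 3.74, 3.83, 3.43 and 4.20 after CA and 0.71, 1.43, 0.41 and 0.92 in sham, a difference of 2.71 (SE 0.31, limma adjusted p = 0.0566). Both probes kept all CA arrays above all sham arrays. Both hold the hexamer AATAAA.

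CUST_41383_PI429483654 read 1.12, 2.36, 2.89, 2.60 and 3.29 after CA and 1.02, -0.39, -0.40 and -0.58 in sham (difference 2.08, SE 0.29, limma adjusted p = 0.0806). The sham array of the earlier day, at 1.02, lay just under the lowest CA array. CUST_34367_PI429483654 read 0.66, 0.07, 2.19, 1.33 and 2.72 after CA and -1.64, -0.35, -1.12 and -1.07 in sham (2.18, SE 0.54, limma adjusted p = 0.514). Its groups did not overlap, and without sham replicate 1 its difference was 1.21. CUST_53488_PI429483654 was dim throughout, at -2.65, -2.25, -1.55, -2.11 and -1.43 after CA and -2.74, -3.59, -3.73 and -3.79 in sham. Its difference was 1.17 (limma adjusted p = 0.188).

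The other probes among the 8 of lowest p in the higher direction had groups that overlapped, or were undetected in part of the sham group. CUST_51285_PI429483654 read -0.93, -1.43, 0.82, 0.55 and 0.75 after CA and -0.25, -2.61, -2.62 and -2.44 in sham (1.21, limma adjusted p = 0.110). CUST_37816_PI429483654 read 0.90, 0.72, 4.00, 4.19 and 4.15 after CA and 3.19, -0.08, -0.09 and -0.03 in sham (0.90, limma adjusted p = 0.146). In both, sham replicate 1 lay above the later CA arrays, and CA was above sham within each day. CUST_30730_PI429483654 read -2.57, -2.32, -1.77, -2.86 and -2.77 after CA and -4.23, -3.69, -3.95 and -4.17 in sham, the first sham array not well above background (1.60, limma adjusted p = 0.164). CUST_16265_PI429484123 read -2.88, -2.43, -0.62, 0.07 and -1.09 after CA and -2.65, -3.87, -5.74 and -5.06 in sham, where replicates 3 and 4 were not well above background (2.19, limma adjusted p = 0.229). Its groups overlapped.

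Among the 8 probes of lowest p in the lower direction, adjusted p in limma ran from 0.720 to 0.793. CUST_39084_PI429483654 had the widest fitted difference, -1.60, but it rested on 1 array: sham replicate 1 read 3.64, while sham replicates 2, 3 and 4 read -1.01, -0.55 and -0.59 and the CA arrays -1.07, -1.45, 0.36, 0.44 and 0.22. Its catalogue partner A_64_P048408 repeated this, with 3.39 on sham replicate 1 and -0.86, -0.71 and -0.50 on the other sham arrays. CUST_13449_PI429483654 read 3.57, 4.40, 3.19, 4.11 and 3.22 after CA and 4.35, 4.60, 5.20 and 5.27 in sham, and the groups overlapped at 1 array each.

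Across both days, 33 custom probes (0.573%) had a CA level of 2-fold the sham level or more on each day, where 0.87% of all tested probes and 1.23% of level-matched catalogue probes were. In the lower direction there were 4 (0.0694%; background 0.152%). The 33 were dim, with a median level of -3.40, and 5 of them were detected on all 9 arrays. Without CA replicate 3 the count fell to 13, and without CA replicate 1 it was 55. All CA arrays lay above all sham arrays for 47 tested custom probes (0.816%; background 0.773%) and below for 24 (0.417%; background 0.487%), which is near the background in both directions. The median custom difference was 0.152 on the earlier day, -0.00783 there without CA replicate 3, and 0.00366 on the later day.

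The CA minus sham difference itself varied between days at 2 custom probes of the 6 probes called for it (limma interaction term, adjusted p under 0.05; background 0.0207%). That count was 0 with the percentile over detected probes, without a detection filter, and on leaving out any 1 of CA replicates 1, 2, 4 and 5 or sham replicates 2, 3 and 4, and it was 1 to 23 in the other settings run. Without CA replicate 3 it was 6 of the 29 probes called. An unadjusted p under 0.05 was reached by 294 (5.10%), against 6.27% of all tested probes. CUST_50765_PI429483654 read 0.54, 0.56, -0.62, -0.93 and -0.86 on CA replicates 1 to 5 and 0.48, 0.57 and 0.46 on sham replicates 2, 3 and 4, but -5.32, not well above background, on sham replicate 1 (interaction 4.47, SE 0.33, limma adjusted p = 0.0429). CUST_41342_PI429484123 was the reverse: 0.58 on sham replicate 1 and -4.83 to -3.63 on the other 8 arrays, of which CA replicates 3, 4 and 5 were not well above background (interaction -5.09, SE 0.43, limma adjusted p = 0.0429). Since 1 side of the earlier-day difference was undetected at both probes, the fitted sizes depend on signal at background, and both calls rest on sham replicate 1.

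Probes of like sequence read alike. Custom and catalogue probes sharing at least 40 bases on the same strand formed 221 pairs, of which both were tested in 177. Their levels differed by a median of 0.355 and their scan-day differences by 0.137, with the same sign of the day difference in 161. The level gap narrowed as the shared stretch grew, from 0.868 at 25 to 29 bases to 0.709, 0.532 and 0.200 at 30 to 39, 40 to 49 and 50 to 59 bases. CUST_29584_PI429483654 and A_64_P004086 read 0.92 and 0.82 on CA replicate 1, 3.09 and 2.91 on CA replicate 4 and 2.52 and 2.42 on sham replicate 1, with day differences of 1.56 and 1.57. Pairs of custom probes sharing 50 to 59 bases differed by a median of 0.0849. Some probes sit in several pairs, so the pairs are not independent.

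Probes to opposite strands were few. Custom and catalogue probes sharing at least 40 bases as reverse complements formed 9 pairs, and both were tested in 5. Their scan-day differences had the same sign in 3 of the 5 and lay a median of 1.06 apart. Among custom probes, 6 such pairs were tested and the sign was the same in 6, with a median gap of 0.573. CUST_2400_PI429484123 read 1.65, 1.88, 0.19, 1.07 and 0.98 on CA replicates 1 to 5 and 0.91, 1.70, 2.30 and 1.90 on sham replicates 1 to 4, lower on the earlier day by a fitted difference of -1.03. Its partner A_64_P087811, on the other strand of the same 57 bases, stayed between -1.25 and -0.63 with a day difference of 0.03.

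The largest groups of near-identical custom probes all belonged to design PI429483654 and were detected on all 9 arrays. A group of 21 probes held the stretch AAAGCTCATTTCCTGGTATG. Their mean levels ran from 0.98 to 6.23 (median 5.31), their scan-day differences from 1.13 to 2.03, and their CA minus sham differences only from -0.12 to 0.12. The brightest was CUST_50526_PI429483654, at 6.23. CUST_43774_PI429483654, with 2 mismatches to it over 60 bases, read 6.17, CUST_30766_PI429483654, with 4 over 52 bases, 2.88, and CUST_40956_PI429483654, with 7 over 52, 0.98. Over the whole group, with overlaps of unlike length, level did not follow the mismatch count. CUST_42190_PI429483654, with 2 over 49 bases, read 3.86, and CUST_46284_PI429483654, with 3 over 60, read 6.12. CUST_48013_PI429483654 read 5.49. Its mismatch count, 19 over 41, is not comparable with the others. Alignments of short overlap were not searched, so the one scored need not hold the shared stretch. Among members overlapping the brightest over 60 bases, levels tended to fall with the count. They were 6.17 at 2 mismatches, 5.54 to 6.12 at 3, 5.16 and 5.70 at 4, and 4.93 at 5. All 21 were brighter on the earlier day.

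A further group of 13 probes held TTAGGACCAATTATAATGAC, with levels from -1.68 to 2.76 and scan-day differences from 0.42 to 1.05. Another group of 10 held AATGAATATGGCTACAGCAA, with levels from 4.87 to 6.54 and scan-day differences from 1.79 to 2.09. That stretch also lies in CUST_50526_PI429483654, and its brightest probe, CUST_44188_PI429483654, overlaps CUST_50526_PI429483654 over 59 bases with 1 mismatch, so this group and the first hold near copies of each other. The groups were not matched to a gene here. Members of related groups can pair with each other's targets, so they are not separate measurements.

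Exact matches to promoter windows gave some custom probes a place in the genome. Of 33469 windows, those of 86 genes held all 60 bases of 80 custom probes, 42 on the gene's strand and 43 on the opposite one, with some probes counted in both. Among the 80, 41 (51.3%) were tested, 18 were detected on all 9 arrays and 11 on none. Of the 17 marked on a single array, 13 were marked on CA replicate 3. Probes antisense to a protein-coding gene were tested in 17 of 30 cases (56.7%) and those in sense in 10 of 23 (43.5%). For long non-coding RNA genes it was 13 of 20 in sense (65.0%) and 4 of 13 antisense (30.8%). Between days, 9 of the 41 were called higher and 9 lower, where 46.0% of all tested custom probes were called. An unadjusted p under 0.05 after CA was reached by 2 of the 41, where 4.9% of all tested probes reached it, and the lowest limma adjusted p was 0.745.

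Some probes whose sequence lies antisense in a promoter window were bright. Only promoter windows were searched, so other matches of these probes in the genome were not checked, and CUST_23421_PI429484123 lay in the windows of 2 genes. CUST_32910_PI429483654, antisense to Tob2 from -210 to -151 relative to its start, read 2.71, 3.06, 2.73, 3.11 and 3.85 after CA and 2.97, 2.77, 3.13 and 2.98 in sham. Tob2 encodes an antiproliferative protein of the BTG/TOB family. These values were level across days and groups (day difference 0.22). CUST_1012_PI429484123, antisense to Ccdc85b from -195 to -136, read 0.92, 1.58, 0.98 and 1.72 on the earlier arrays and 3.10, 3.43, 2.86, 3.78 and 3.13 on the later ones. The days did not overlap, with a day difference of -1.89. CUST_2770_PI429484123, antisense to Wsb1 from -124 to -65, read -0.01, 0.21, 0.07, -0.17 and -0.38 after CA and -1.09, -0.10, -0.45 and -0.82 in sham. Wsb1 is a substrate receptor of a ubiquitin ligase. The groups overlapped, and the difference of 0.70 had a limma adjusted p of 0.785.

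In sense, CUST_33202_PI429484123 at the long non-coding RNA gene LOC134481947 was among the brightest of the promoter set, at 4.67 to 6.09 on all arrays. CUST_33065_PI429484123 at LOC134480504 read 1.52, 2.37, 2.40, 2.28 and 2.34 on the later arrays and -1.57, -4.12, -3.43 and -2.38 on the earlier ones, a day difference of -4.89. CUST_31079_PI429484123 at LOC134486213 read 2.98, 4.15 and 3.25 on the earlier CA arrays, 0.86 on the earlier sham array and 0.02 to 0.53 on the 5 later arrays. It separated CA from sham on the earlier day alone, against 1 sham rat. CUST_23144_PI429484123 crosses the start of Ptgs2, the inducible cyclooxygenase, and read -5.50 to -2.73, detected on the 5 later arrays and on none of the earlier. With the earlier arrays taken at their lowest detectable level, it was at least 0.92-fold as bright on the later day (limma adjusted p for scan day 0.0750). Its detection on 1 day therefore shows no difference in level. The labelled tissue could not be checked with these matches: of 54 marker genes, 37 had a window and 0 held a custom or catalogue probe. The 54 covered brain cell types, endothelium, red cells, heart and skeletal muscle, and immediate early, heat shock, inflammatory and noncoding RNA genes.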

How the data were processed

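Each of the 9 files holds 1 array. The submitters' processing notes and the file headers name Agilent Feature Extraction, version 10.7.1.1. The deposited intensity of a spot, the processed signal, was background-subtracted and detrended within the array per the file headers, with no step between arrays. Each spot also has a deposited score of 0 or 1 for being well above background, and a probe counted as such where at least a share of 0.5 of its spots were. The deposited normalized table holds log2 values, and the sources used here do not give their normalization. It served as an alternative.

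Unflagged spots of a probe were averaged on the log2 scale, and each array's 75th percentile was subtracted. Probes well above background on at least 4 of 9 arrays were tested (28976) in limma 3.58.1 under R 4.3.3, with group and scan day in the model and Benjamini-Hochberg adjustment over all of them. Single values were tested by exact permutation in python 3.11.15 with numpy 2.4.6, pandas 2.3.3 and scipy 1.17.1. Nothing in the labels ties a replicate number across groups, and same-numbered CA and sham arrays deviated from their group means with correlations of -0.851, 0.816, -0.289 and -0.730, so numbers were not used as pairs. The precision is limited by the number of arrays.

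The probes named were the 8 of lowest p in each direction after CA, those detected on all arrays and at least 2-fold changed one way on both days, the 6 brightest, the 5 widest scan-day differences each way, the 3 brightest detected on 1 day only each way, the longest sequence overlaps with catalogue probes on either strand, and the 3 largest groups by a shared 20-base stretch. Probes of promoter windows, near copies (at least 40 bases overlapping with at most 6 mismatches) and the 2 interaction probes were chosen after their values were seen. The members, lists and tests were chosen with earlier results of these data known. Promoter and miRNA sequences are RefSeq's (GRCr8). The probes' own genome positions were not used here, and the array's header names build rn4. The fits were tested on simulated data. Alternatives were other scalings, normexp background correction, the deposited table, other detection filters, no block, slide and replicate blocks, array weights, and leaving out each array.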

Additional observations from a re-analysis of the deposited data

Results flagged for a closer look

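Of 100 groups of arrays examined (the named probes and the class summaries, in CA and in sham), 23 held 1 array whose gap to the nearest other spanned most of the group's range. Of these, 22 were sham replicate 1, which has no other sham array on its scan day, and many of the probes had been named for their scan-day difference. Chance gives such a gap in about 1 group in 20 only for alike arrays and unselected items, so that rate is no comparison here. For probes named for CA, sham replicate 1 read 1.02 at CUST_41383_PI429483654, -0.25 at CUST_51285_PI429483654, 3.19 at CUST_37816_PI429483654, 2.18 at CUST_19839_PI429484123, 1.25 at CUST_36501_PI429483654, 2.11 at CUST_38340_PI429483654 and 3.64 at CUST_39084_PI429483654, each above the other 3 sham arrays. For probes named for the scan day, it lay below the later sham arrays with -0.15 at CUST_28860_PI429483654, -2.68 at CUST_28747_PI429483654, -0.83 at CUST_23730_PI429484123, -1.56 at CUST_39447_PI429483654, -1.78 at CUST_10300_PI429484123, -4.23 at CUST_35283_PI429483654, -5.03 at CUST_28740_PI429483654 and -5.79 at CUST_30600_PI429484123. It lay above them with 4.66 at CUST_39012_PI429483654, 2.45 at CUST_43742_PI429483654, 1.30 at CUST_1945_PI429484123, 7.50 at CUST_39337_PI429483654, 2.44 at CUST_17080_PI429484123, 1.25 at CUST_42901_PI429483654 and 1.80 at CUST_33446_PI429483654.

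Sham replicate 3 stood apart from the other sham arrays in level-matched detection, with custom minus catalogue at 3.36 percentage points.

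The CA minus sham difference varied between scan days at CUST_50765_PI429483654 (interaction 4.47) and CUST_41342_PI429484123 (interaction -5.09), by limma's interaction term with an adjusted p of 0.0429 for both. At each, the arrays on 1 side of the earlier-day difference were not well above background, so the sizes depend on signal at background. Without CA replicate 3 the interactions were 4.38 and -5.25 (limma adjusted p = 0.0165 for both).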

How the results depend on the processing

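The count of custom probes called higher after CA, 0 in the main setting, was 5 with normexp, 6 over probes detected on all 9 arrays, 11 with array weights and 4 with an intensity trend; the count called lower stayed 0 in all settings run. With the replicate block beside scan day it was 0 higher and 0 lower, and the replicate numbers pair no samples. Leaving out each array gave 0 to 0. Scan-day calls were 3161 higher and 883 lower with normexp, 0 and 0 in the deposited table, 3544 higher without a detection filter and 533 lower over probes detected on all arrays; leaving out arrays gave 921 to 1388 higher and 1105 to 2148 lower. Probes at least 2-fold higher on both days (33) numbered 17 after quantile normalization, 3 with normexp, 12 in the deposited table, 5 over all-array probes and 67 without a filter, with 13 to 55 on leaving out arrays (13 without CA replicate 3, 55 without CA replicate 1). Those lower (4) numbered 10, 0, 9, 0 and 7, with 2 to 12. Interaction calls (2) numbered 0 with the percentile over detected probes, 1 after quantile normalization, 21 with normexp, 9 in the deposited table, 16 over all-array probes, 0 without a filter, 23 with array weights and 13 with a trend, and 0 to 6 on leaving out arrays. The cause of these changes was not tested. Counts over all tested probes are not given here for these other settings. The custom counts therefore do not show whether the class was called more or less often than the array.

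The earlier minus later share well above background was -8.17 points by the weaker mark of significance over background (exact permutation p = 0.0635), and -20.7 to -14.4 on leaving out arrays. The custom minus catalogue share kept -19.6 to -18.1 points and the median level -1.14 to -1.03, but 0.0532 over all-array probes. The level-matched share at least 2-fold between days (-7.38 points) was -5.09 with the percentile over detected probes, -1.69 in the deposited table, -3.20 without a filter, and -7.84 to -6.21 on leaving out arrays. The level-matched absolute day difference (-0.122) was -0.0123 in the deposited table and -0.138 to -0.110 on leaving out arrays. Without the scan-day block, CA minus sham turned to 0.213 at CUST_19839_PI429484123 and 0.459 at CUST_36501_PI429483654. In the deposited table the day difference turned to 0.0759 at CUST_28860_PI429483654, 0.0484 at CUST_28747_PI429483654, 0.0153 at CUST_23730_PI429484123, 0.105 at CUST_39447_PI429483654, 0.203 at CUST_10300_PI429484123, -0.313 at CUST_1945_PI429484123, -0.696 at CUST_31087_PI429483654, -0.0653 at CUST_39337_PI429483654, -0.919 at CUST_17080_PI429484123, -0.267 at CUST_42901_PI429483654, 0.125 at CUST_35283_PI429483654, 0.0813 at CUST_28740_PI429483654 and 0.0919 at CUST_30600_PI429484123. Without sham replicate 1 the both-day and interaction values could not be given, and identical 60-base pairs gave no value because none exist. Background limits what dim probes show: levels below the lowest detectable signal of an array are only bounds.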
